A study of Homo sapiens with 4 samples.

Results

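Contacts of the ribosomal RNA gene clusters (rDNA) that were mapped to the rDNA units assembled on chromosome 21 were followed in K562 cells. The regions analysed were the contact regions whose midpoint lay between positions 8190000 and 8490000 of chromosome 21 in the hg38 genome, the stretch that holds all 3 copies of the viewpoint. Untreated replicates 1 and 2 held 107 and 119 such regions, of 50751 and 50221 in all. Hemin replicates 1 and 2 held 98 and 109, of 47042 and 49689. These regions made up from 0.208% to 0.237% of the regions of a library and most of its reads.

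The method was 4C, in which cross-linked chromatin is cut and ligated and the partners of 1 chosen sequence, the viewpoint, are amplified and sequenced. Nuclei were cut with EcoRI, which cuts at GAATTC, and the ligated DNA was shortened with FaeI, which cuts at CATG. K562 is an established human erythroleukemia cell line, here either grown without treatment or kept for 108 h with 50 µM hemin, an iron porphyrin that induces erythroid differentiation of these cells. Each group had 2 libraries, which the study's methods call biological replicates, and the question was which contacts of rDNA change with differentiation.

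Human rDNA lies in tandem units on the short arms of the acrocentric chromosomes, chromosome 21 among them, and forms the nucleolus. In each unit RNA polymerase I makes a 45S precursor, which is cut into the 18S RNA of the small ribosomal subunit and the 5.8S and 28S RNAs of the large one. The intergenic spacer, where the viewpoint lies, separates one 45S gene from the next.

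In hg38 the viewpoint occupied 297 bases at 8237910 to 8238206, at 8420934 to 8421230 and at 8465517 to 8465813, called copies 1, 2 and 3. An EcoRI site lay 55 bases before each copy and the nearest FaeI site 102 bases after it, with neither site in between. The stretch held 27 EcoRI sites, 592 FaeI sites and 2 gaps of unknown sequence, at 8260972 to 8310971 and from 8472361 to its end. RefSeq placed 25 genes in it, among them 3 genes each for the 45S, 18S and 28S RNAs, 3 rRNA pseudogenes and 6 microRNA genes, and GENCODE release 44 placed 32. Units 1 and 2 were measured from the EcoRI site upstream of their 45S gene to the next upstream site. For unit 1 that next site lay before the pseudogene unit, and for unit 2 before the 45S gene of unit 3. Units 1 and 2 were 44190 and 44168 bases long and 96.6% identical. Unit 3 ran from 8432713 into the second gap.

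The sequences below carry the results, all read from hg38 on the forward strand, with unit numbers as for the copies. The viewpoint is shown with its primer ends in capitals. The 28S and 18S sites, which took the most reads outside the viewpoint's own flank, are shown with GAATTC in capitals. The 18S pseudogene site and both forms of the sequence up to the EcoRI site before the viewpoint are shown because copies differ there, with each differing base in capitals too. The 2 short places seen in 1 group alone are shown with CATG in capitals.
Viewpoint, copy 1, chr21:8237910-8238206: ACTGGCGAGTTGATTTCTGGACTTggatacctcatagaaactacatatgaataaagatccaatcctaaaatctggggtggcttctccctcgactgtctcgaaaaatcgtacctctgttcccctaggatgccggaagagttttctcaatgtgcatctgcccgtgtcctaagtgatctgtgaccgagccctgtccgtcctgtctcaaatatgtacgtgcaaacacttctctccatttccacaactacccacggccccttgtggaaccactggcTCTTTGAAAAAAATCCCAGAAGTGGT
28S site, unit 1, chr21:8218277-8218462: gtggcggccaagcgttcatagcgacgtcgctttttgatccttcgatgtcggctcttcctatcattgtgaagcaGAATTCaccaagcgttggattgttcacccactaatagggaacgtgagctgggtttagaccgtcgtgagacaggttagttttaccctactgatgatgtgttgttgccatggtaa
18S site, unit 1, chr21:8211169-8211374: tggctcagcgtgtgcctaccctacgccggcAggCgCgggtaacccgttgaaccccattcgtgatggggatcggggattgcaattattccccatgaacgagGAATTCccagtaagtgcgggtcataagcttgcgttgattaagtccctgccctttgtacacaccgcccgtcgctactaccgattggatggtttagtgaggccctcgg
18S pseudogene site, chr21:8255378-8255582: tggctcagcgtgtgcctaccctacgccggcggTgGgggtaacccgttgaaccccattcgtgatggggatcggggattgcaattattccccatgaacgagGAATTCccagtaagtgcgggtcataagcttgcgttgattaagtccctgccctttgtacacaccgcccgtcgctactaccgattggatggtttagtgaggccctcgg
Before the viewpoint, copy 1, chr21:8237663-8237860: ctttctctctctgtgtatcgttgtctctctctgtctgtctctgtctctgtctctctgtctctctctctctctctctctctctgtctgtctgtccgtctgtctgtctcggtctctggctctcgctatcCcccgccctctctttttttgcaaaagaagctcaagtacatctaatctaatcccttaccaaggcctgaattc
Before the viewpoint, copy 3, chr21:8465268-8465467: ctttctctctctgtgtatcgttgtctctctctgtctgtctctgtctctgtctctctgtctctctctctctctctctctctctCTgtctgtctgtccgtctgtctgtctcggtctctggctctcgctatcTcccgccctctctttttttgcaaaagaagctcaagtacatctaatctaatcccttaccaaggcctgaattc
Untreated place, copy 1, chr21:8246635-8246701: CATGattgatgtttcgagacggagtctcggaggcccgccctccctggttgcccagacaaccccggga
Hemin place, unit 1, chr21:8217597-8217689: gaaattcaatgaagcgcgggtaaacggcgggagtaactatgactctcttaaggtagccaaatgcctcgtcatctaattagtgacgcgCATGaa
The 28S sequence and the viewpoint occurred 3 times each in the stretch, and the 18S sequence 3 times beside the pseudogene. The 18S window and that of the pseudogene RNA18SP5 differed by 3 edits, and so did the sequences before copies 1 and 3, while copies 1 and 2 were identical there. The 100 bases from the start of each of the 27 EcoRI sites onward occurred on no other assembled chromosome of hg38, and those of the 18S genes and the pseudogene were the same. Units of the other acrocentric chromosomes are thus not assembled with these sequences, and reads from them can stand in this stretch. From which unit or chromosome a read came cannot be told. From 70.1% to 73.9% of the regions of a library had an exact copy elsewhere in the stretch, and the methods name no cut on mapping quality, so a read that fits several copies equally well can stand at any one of them. The scaffolds of hg38 outside the assembled chromosomes held further exact copies, 2 for each 28S site, 4 for each 18S site, 1 of the viewpoint and 2 of the 100 bases after it, so reads of these sequences can also stand outside the stretch. The copies are therefore not independent observations of a contact.

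Libraries held 31721628 and 34000240 reads in the untreated group and 19548906 and 20577487 in the hemin group. Regions of the 4 libraries joined into 137 places in the stretch, of which 56 were met in all 4 libraries and held at least 99.93% of the stretch reads of each. A further 22 places were met in both untreated libraries and neither hemin library, 15 in both hemin libraries and neither untreated library, and 27 in a single library. Presence in 1 group alone was common in these data: 83.6% of all 1 kb bins tested in the genome had no reads in 1 of the groups, against 19.7% of the tested bins of the stretch. Replicate 1 of the untreated group stood apart at a pair of places about 41 kb before copies 1 and 2, with 4415 and 4414 reads where the other 3 libraries had 0. Results that rest on that library are given with and without it.

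The share of the library taken by the stretch did not separate the groups. The stretch took 61.8% and 62.2% of the reads of the untreated libraries and 62.1% and 61.9% of the reads of the hemin libraries. The groups overlapped, with means of 62.0% ± 0.266 and 62.0% ± 0.180 (SD, n = 2 each), and the two-sided exact permutation test gave p = 1.00. With 2 libraries against 2, that test cannot give a p under 0.333. Of the reads on chromosome 21 alone the stretch held 93.8% and 94.0% in untreated and 94.9% and 94.8% in hemin libraries, and there the groups did not overlap.

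Within the stretch nearly all reads stood at a few places at fixed distances from the viewpoint. By signed distance to the nearest copy, negative before it, reads within 2 kb made up 81.7% and 81.5% of the stretch reads in untreated and 85.5% and 85.3% in hemin libraries. Both hemin libraries were higher than both untreated libraries, by 3.83 percentage points in the mean (exact permutation p = 0.333, the smallest possible). Of these near reads 99.1% to 99.2% lay after the viewpoint. Nearly all stood in 1 region per copy, 596 to 1017 bases wide, that began inside the viewpoint copy or just after its end and ran past the first FaeI site, so reads of the viewpoint's own fragment and reads of contacts cannot be told apart there.

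**Figure D1:**
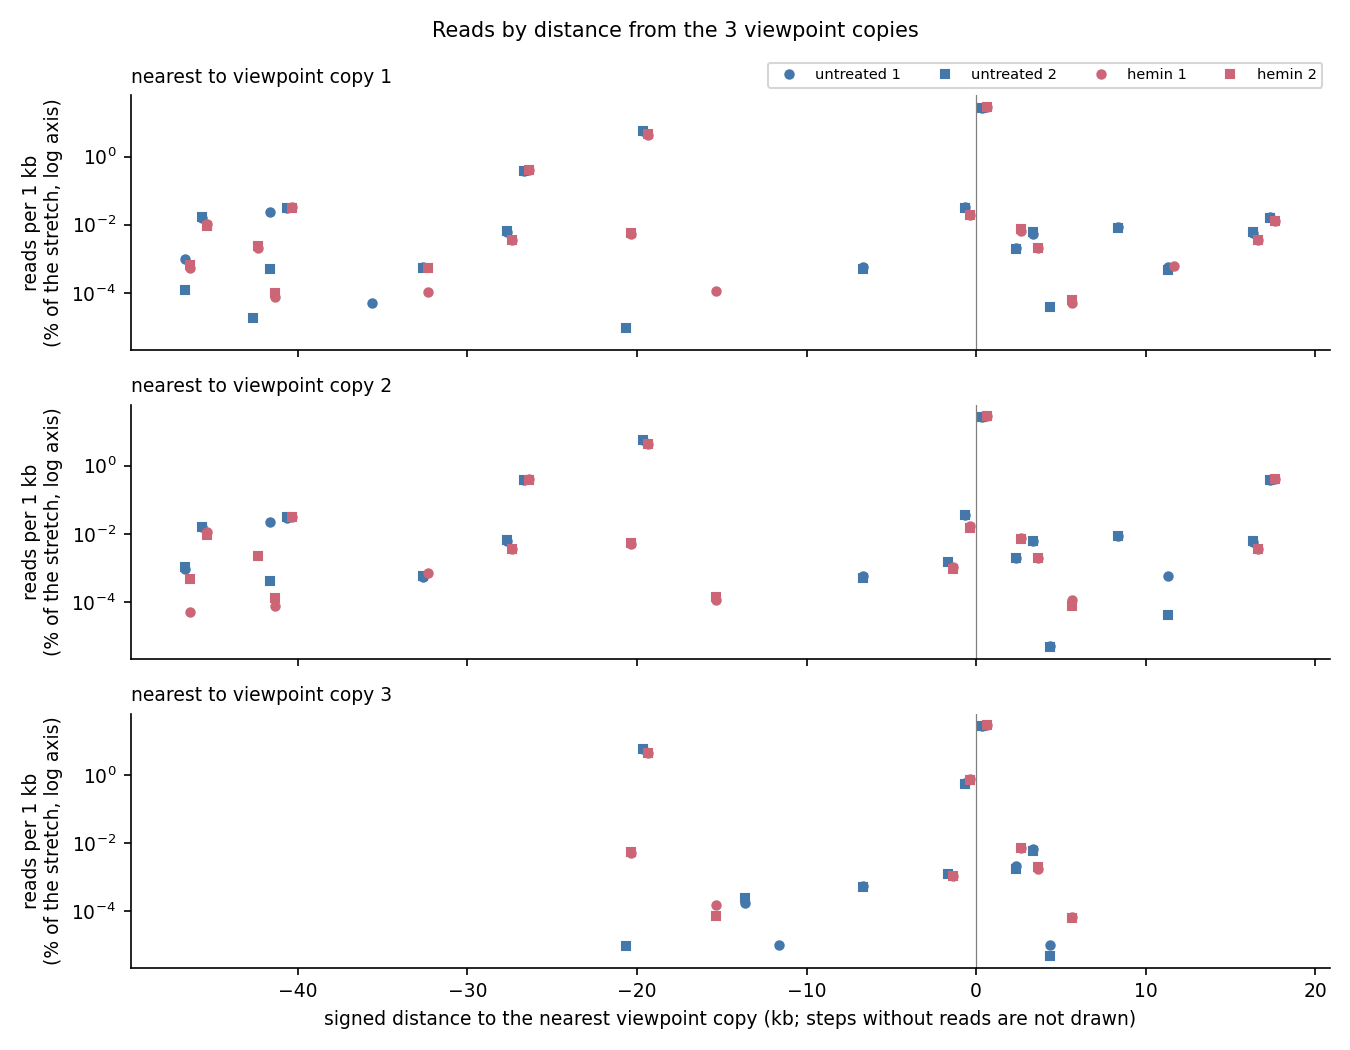
Reads in 1 kb steps, as percent of the stretch reads on a log axis, against the signed distance to the nearest viewpoint copy in kb, with a panel for each copy, circles for replicate 1 and squares for replicate 2. The step after the viewpoint stands highest in every library, followed by the step of the 28S site 20 kb before each copy, and both stand at the same distance from each copy.

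Nearly all reads of the 28S genes stood at 1 EcoRI site per unit. In each unit 1 EcoRI site lay in the 28S gene, near its end, at signed distances of -19558, -19544 and -19894 bases from viewpoint copies 1, 2 and 3. Regions at these 3 sites (starts 8218350, 8401388 and 8445620) took 16.9% and 17.2% of the stretch reads in untreated libraries and 13.1% and 13.3% in hemin libraries. Both hemin libraries were lower than both untreated libraries. The means differed by -3.85 percentage points, with SDs of 0.205 and 0.143 (n = 2 each), and the untreated mean was 1.29 times the hemin mean (exact permutation p = 0.333). Shares are parts of the same total, so this fall and the rise of 3.69 points after the viewpoint are not separate results. After each 28S site the next EcoRI site was the one before the viewpoint, 19505, 19491 and 19842 bases on. The 28S site therefore stood at the far end of the EcoRI fragment next to the viewpoint's own. Whether its reads come from that neighbouring fragment or from more distant contacts was not tested.

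The 18S genes were met at a much smaller peak that did not fall with the 28S peak. Regions at their EcoRI site (starts 8211269, 8394304 and 8438514) took 1.15% and 1.13% of the stretch reads in untreated and 1.20% and 1.18% in hemin libraries. The groups did not overlap, although the hemin mean was only 1.04 times the untreated mean. Counted per 1000 reads after the viewpoint, the 18S sites had 14.2 and 14.0 reads in untreated and 14.2 and 13.9 in hemin libraries, which overlap.

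Set against each other inside a library, which removes the depth and the viewpoint flank, the 28S peak was smaller relative to the 18S peak after hemin. The ratio of 28S to 18S reads was 14.7 and 15.2 in untreated replicates 1 and 2, and 10.9 and 11.3 in hemin replicates 1 and 2. The means, 14.9 ± 0.324 and 11.1 ± 0.278 (SD, n = 2 each), differed by a factor of 1.35 without overlap (exact permutation p = 0.333). Each of the 3 units gave the same means, 14.9 and 11.1, as reads shared among identical copies must.

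Summed over its copies, the EcoRI site beside the viewpoint itself rose after hemin. It took 0.625% and 0.614% of the stretch reads in untreated and 0.764% and 0.753% in hemin libraries, 1.22 times more in the mean and without overlap. Without the reads after the viewpoint, its share of the remaining stretch reads was 3.30% and 3.21% against 5.00% and 4.88%. On that base the 18S sites had 6.07% and 5.92% against 7.86% and 7.62%, and the 28S sites 89.2% and 89.7% against 85.7% and 86.0%. The rise beside the viewpoint lay in copy 3, while the shares of copies 1 and 2 fell in the 1 kb before it. As that site lies 55 bases from the viewpoint, reads of neighbouring DNA and of contacts cannot be told apart there either.

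**Figure D2:**
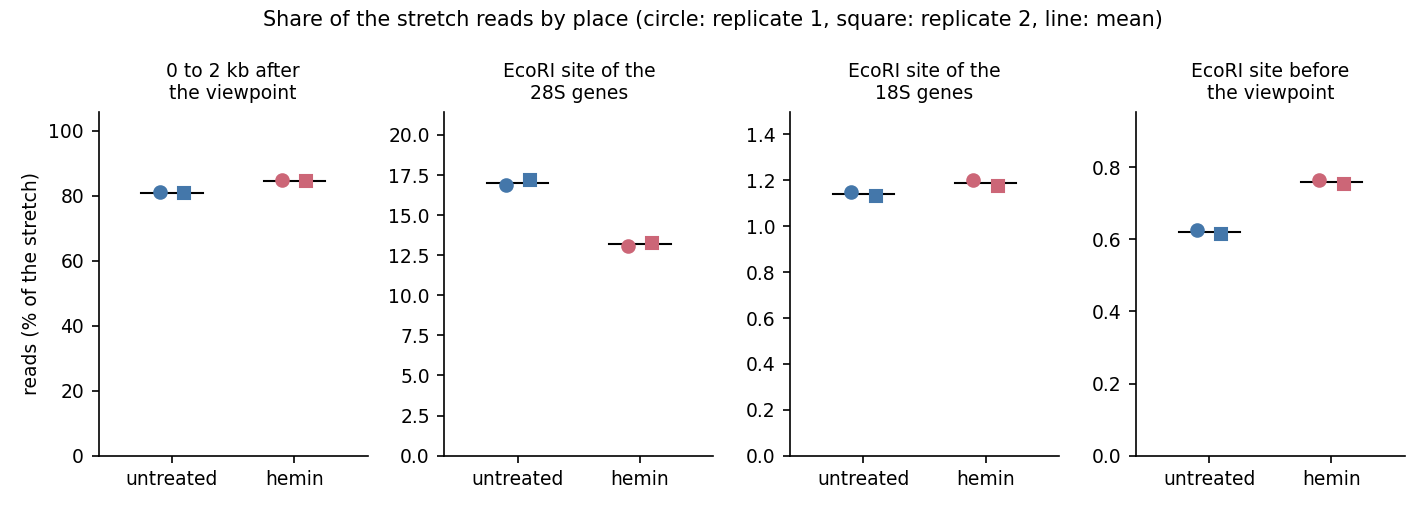
Share of the stretch reads (percent, axes from 0 and different in each panel) in each untreated and hemin library at the flank after the viewpoint and at the EcoRI sites of the 28S genes, of the 18S genes and before the viewpoint, with the mean as a line. Each panel sums the copies. The hemin libraries lie below the untreated ones at the 28S sites, at 13.1% and 13.3% against 16.9% and 17.2%, and above them in the other 3 panels.

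Reads of the same kinds of place were also fitted with the 1 kb bins of the rest of the genome, by edgeR's quasi-likelihood test with Benjamini-Hochberg adjustment. Of 10 kinds of place 6 had an adjusted p under 0.05, 3 higher and 3 lower after hemin, where 93.2% of all features in that fit passed. That is a smaller share than over all features. After hemin the EcoRI site before the viewpoint stood at a log2 fold change of 0.47, with an SE of 0.02 (edgeR, adjusted p = 4.63e-05), against 0.25 after the viewpoint and 0.24 at the 18S sites. At the 28S sites it was -0.19, with an SE of 0.03 (edgeR, adjusted p = 0.00468). These sums over copies were fitted after the values had been seen. The median over all bins was 0.05 with this scaling, TMM, and -0.12 with total reads, where the 28S sites stood at -0.37, the 18S sites at 0.06 and the flank after the viewpoint at 0.07. Under both scalings the 28S sites lay below the median of all bins and the others above it. A change of scaling shifts all values nearly alike, so these positions could hardly differ between scalings. That median falls between 14643 bins without hemin reads and 15131 without untreated reads, of 35621.

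The remaining kinds of place held few reads. At the EcoRI site of the 18S pseudogene RNA18SP5, 945 and 905 reads in untreated libraries stood against 222 and 247 in hemin libraries, which edgeR put at -1.09 on the log2 scale with an SE of 0.09 (adjusted p = 0.000348). Both hemin libraries were lower here while the 18S genes, which differ from it by 3 edits in the printed window, were higher. The EcoRI sites outside the units had a log2 fold change of -0.13 (adjusted p = 0.0286), a call lost without untreated replicate 2 (adjusted p = 0.0669) or without hemin replicate 1 (adjusted p = 0.0765). The 4 EcoRI sites upstream of the 45S genes and of the pseudogene unit held 447, 346, 175 and 70 reads in untreated 1 and 2 and hemin 1 and 2, which did not pass (log2 fold change -0.80, adjusted p = 0.187). Without hemin replicate 1 they did, with -1.63 (adjusted p = 0.0112), while without hemin replicate 2 the value was -0.28 (adjusted p = 0.342, edgeR).

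By gene, the reads of the 45S precursor genes were nearly those of their 28S part. RNA45SN2 in unit 1 had 6.05% and 6.13% of the stretch reads in untreated and 4.79% and 4.85% in hemin libraries. RNA45SN3 in unit 2 had 5.96% and 6.06% against 4.71% and 4.77%. RNA45SN1 in unit 3 had 6.04% and 6.14% against 4.80% and 4.85%. Every 45S gene was thus lower in both hemin libraries. The close values in all units are not repeated evidence, as reads can be shared among identical copies.

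The parts of the 45S genes differed from each other. The 28S genes RNA28SN2, RNA28SN3 and RNA28SN1 had from 5.57% to 5.75% of the stretch reads in untreated libraries and from 4.31% to 4.46% in hemin libraries. The 18S genes RNA18SN2, RNA18SN3 and RNA18SN1 had from 0.382% to 0.391% and from 0.391% to 0.407% in the same order. In each 18S gene both hemin libraries were above both untreated libraries by a small margin. The pseudogene RNA18SP5, all regions counted, had 0.0229% and 0.0221% in untreated and 0.0159% and 0.0162% in hemin libraries.

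No read stood on the 5.8S genes, whose RNA pairs with the 28S RNA. All 4 annotated 5.8S genes and pseudogenes (RNA5-8SN2, RNA5-8SP10, RNA5-8SN3 and RNA5-8SN1) had 0 reads in each library, and so did the 28S pseudogene LOC110467529. The 6 microRNA genes MIR6724-1, MIR6724-2, MIR6724-3, MIR6724-4, MIR3648-1 and MIR10396B, of which the first 4 lie upstream of the 45S genes or the pseudogene unit and the others inside 45S genes, had 0 reads as well. A count of 0 allows up to 3 reads, which is 1.42e-05% of the stretch reads in the deepest library and 2.47e-05% in the shallowest, for counting error only. None of these genes and pseudogenes without reads holds an EcoRI site. Regions at EcoRI sites held 99.1% to 99.3% of the stretch reads outside the viewpoint's flank. A count of 0 there therefore cannot show that contact was absent. The other 4 genes were the long noncoding RNA LOC124904993 and the pseudogenes CDC27P9, CDC27P10 and CDC27P11 of a cell cycle gene, and the viewpoint copy 2 lay inside CDC27P10.

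The 3 copies had nearly equal parts of the reads. Regions nearest copy 1 took 33.3% of the stretch reads in each of the 4 libraries, those nearest copy 2 also 33.3%, and those nearest copy 3 33.4%. The mean differences between the groups were -0.0458, -0.0372 and 0.0830 percentage points for copies 1, 2 and 3. Without regions within 2 kb of a copy those of copies 2 and 3 turned, to 0.660 and -0.605 points. The groups did not overlap for any copy (exact permutation p = 0.333 each), as the SD between replicates was from 0.00214 to 0.0125 points for copies 1 and 2. The regions nearest copy 2 include the 18S site of unit 3, 17286 bases after copy 2.

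Copy 2 was the lowest of the 3 at the shared peaks. After the viewpoint it had 33.1% of the reads in each library, from 0.992% to 1.12% below the mean of copies 1 and 3. In the 1000 bases after the viewpoint copy 2 differed from the others by 3 edits, and copies 1 and 3 were identical. At the 28S sites, where the 250 bases around the site were identical in all copies, copy 2 was lower by 1.32% to 1.85%, and it was lowest at the 18S sites too, with 33.0% or 33.1% in each library.

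At the EcoRI site before the viewpoint the copies were far from equal. In untreated replicates 1 and 2, copy 1 had 6067 and 6293 reads, copy 2 had 7136 and 7661, and copy 3 had 109281 and 115811. In hemin replicates 1 and 2, copy 1 had 2204 and 2322 reads, copy 2 had 2026 and 1942, and copy 3 had 88531 and 91680. Copy 3 therefore held 89.2% of these reads in each untreated library, and 95.4% and 95.6% in hemin replicates 1 and 2, without overlap.

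Bins of 1 kb at these sites went opposite ways. The bin of copy 3 rose after hemin, as did the sum over copies, while the bin at 8420001 to 8421000 with the site of copy 2 fell by 0.99 on the log2 scale (SE 0.06, adjusted p = 0.000207, edgeR). The sequence up to that site differs between copy 3 and the other copies, by the bases in capitals in the pair printed above. How far those bases decide where the aligner placed a read was not tested.

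**Figure D3:**
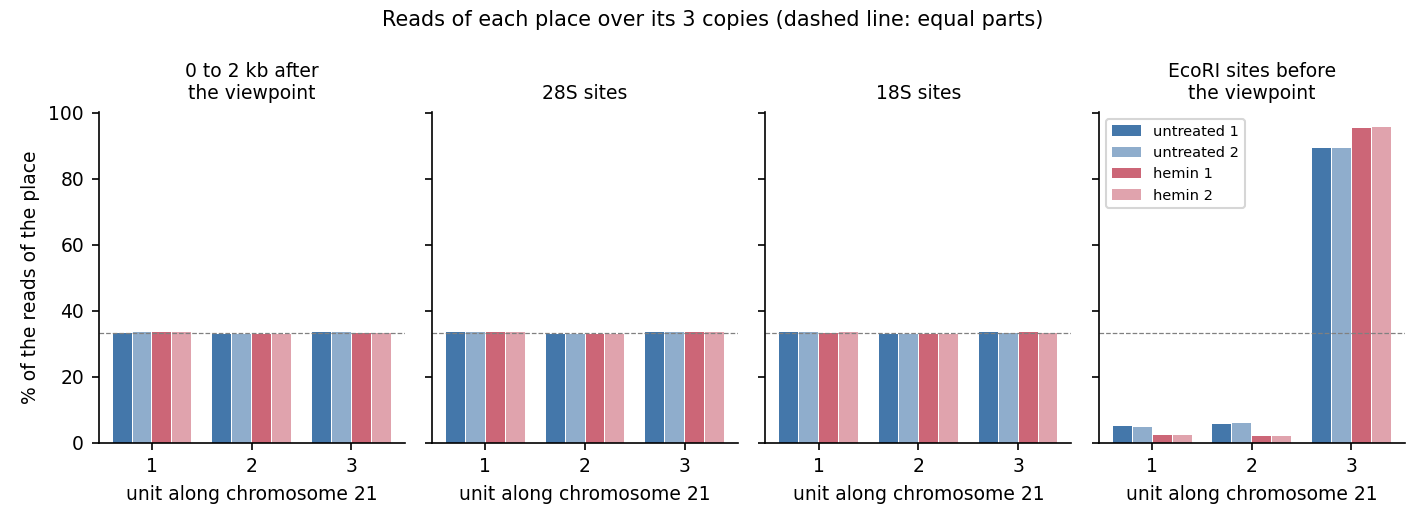
Percent of the reads of a kind of place that stood at each of its 3 copies, in the order of the units along chromosome 21, with a bar for each library and a dashed line at equal parts. The flank after the viewpoint, the 28S sites and the 18S sites lie at 32.9% to 33.6% per copy, whereas copy 3 holds 89.2% to 95.6% of the reads at the EcoRI site before the viewpoint.

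Smaller places were followed by their distance from the nearest copy. Steps of 1 kb by signed distance, summed over the copies, were fitted with the bins outside the stretch, a fit also chosen after the values had been seen. Of 35 steps tested 13 rose and 12 fell after hemin (edgeR, adjusted p under 0.05), again below the 93.2% of all features that passed. Of the 18 steps within the units, 8 rose and 7 fell.

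The lowest fold change was 8 to 9 kb after the viewpoint, in the spacer and outside any RefSeq gene. At copy 1 the untreated libraries had 1708 and 1748 reads and the hemin libraries 0 and 0, and at copy 2 they had 1724 and 1792 against 0 and 0. Against a floor of 3 reads per library, the hemin level summed over both copies was at least 628-fold lower (adjusted p = 4.25e-05, edgeR). This bound and those below cover the counting of reads only, and reads of a PCR product are not independent molecules. Of all 1 kb bins tested 83.6% had no reads in 1 of the groups. The same distance after copy 3 falls in the gap, and the place is the untreated place printed above. All 4 regions in this step met a FaeI site and 0 met an EcoRI site. Whether reads away from EcoRI sites come from contacts was not tested.

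A second loss lay 6 to 7 kb before each copy, where the untreated libraries had 331 and 322 reads over all copies and the hemin libraries none. That is at least 58.8-fold lower after hemin (adjusted p = 6.72e-05, edgeR). Of the 11 regions in this step 0 met an EcoRI site. Copies 1, 2 and 3 had 115, 110 and 106 of the reads in untreated replicate 1. As a read can stand at any copy that it fits, this even split is not repeated evidence.

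The reverse pattern stood 20 to 21 kb before the viewpoint, inside the 28S gene and under 1 kb from its EcoRI site. There the hemin libraries had 1897 and 2082 reads over the 3 copies, and the untreated libraries 0 and 4. Of the 14 regions in this step 0 met an EcoRI site. Copy 2, with 0 and 0 untreated reads, rose at least 396-fold in its bin (8400001 to 8401000), and copy 3 at least 401-fold in the bin at 8444001 to 8445000 (adjusted p = 4.71e-05 each, edgeR). The hemin place printed above occurs 3 times in the stretch, so these are not independent rises. Reads thus appeared in hemin libraries in the very gene whose main peak was lower there, at 0.0156% and 0.0163% of the stretch reads.

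Neighbouring places could move in opposite directions. At 2 to 3 kb after the viewpoint the reads over all copies numbered 1219 and 1201 in untreated and 2563 and 2760 in hemin libraries, which edgeR put at 2.03 on the log2 scale with an SE of 0.06 (adjusted p = 4.25e-05). At 3 to 4 kb after it they numbered 3537 and 3732 against 686 and 745, or -1.45 with an SE of 0.06 (edgeR, adjusted p = 5.53e-05). The 3 copies went the same way in both steps, but they are not independent observations. Copy 1 had 399, 418, 806 and 972 reads in the nearer step, in untreated 1 and 2 and hemin 1 and 2. In the farther step it had 1074, 1250, 245 and 259 in the same order. Both steps lie in or at the CDC27 pseudogenes of the spacer. Of their 23 and 21 regions 0 met an EcoRI site.

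Steps 27 to 28 kb before and 16 to 17 kb after a copy, which hold the part of the 18S genes and of RNA18SP5 before their EcoRI site, fell by 0.61 and 0.57 on the log2 scale (adjusted p = 0.00152 each, edgeR). Their reads were 2358 and 2724 against 896 and 896 before, and 2234 and 2553 against 851 and 883 after. The next steps, with the EcoRI sites of the 18S genes, rose by 0.24 and 0.23 (edgeR, adjusted p = 0.000185 and 0.000245). The step 32 to 33 kb before a copy, upstream of the 45S genes, did not pass (adjusted p = 0.06), with 221 and 235 against 99 and 70 reads.

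**Figure D4:**
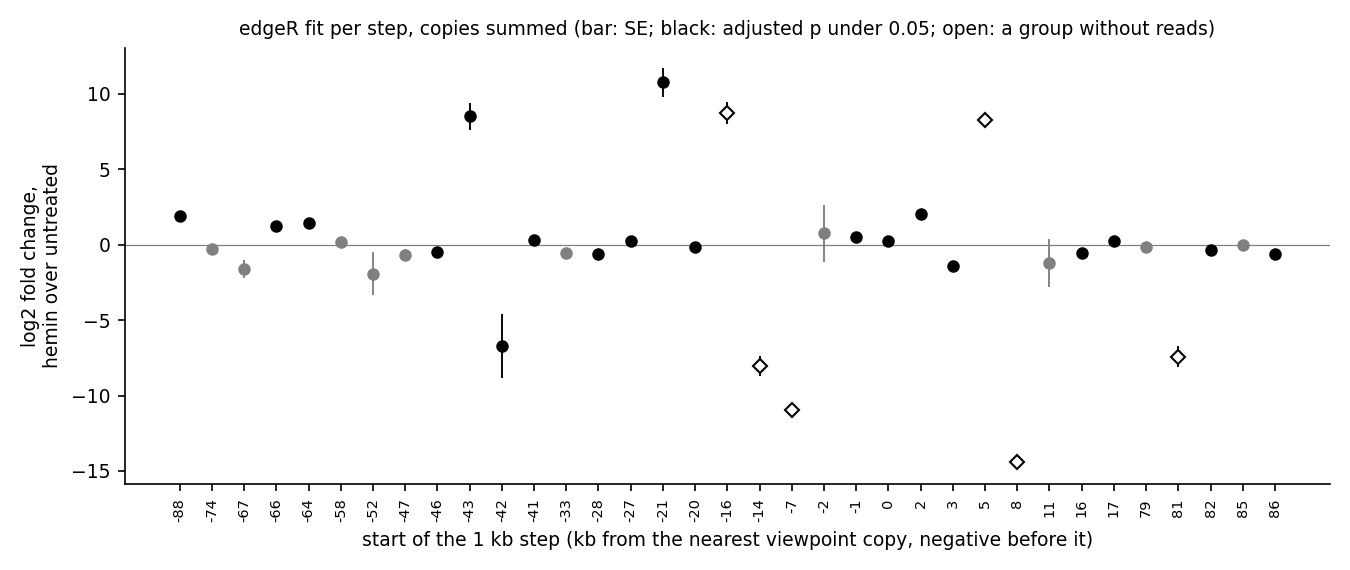
Log2 fold change of hemin over untreated reads from the edgeR fit for 35 steps of 1 kb, ordered by distance from the nearest viewpoint copy, with the SE as bars, black for adjusted p under 0.05 and open diamonds where a group had no reads, whose height depends on the fit and is no bound. Steps with reads in all libraries lie mostly near 0, and the largest values belong to steps where a group had no reads or where reads were few or uneven in a group, at -43, -42 and -21 kb.

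Of the 27 EcoRI sites of the stretch, inside the units and outside them, each untreated library met 27, hemin replicate 1 met 25 and hemin replicate 2 met 24. In the step 87 to 88 kb before copy 2 the reads rose from 1225 and 1321 to 2484 and 2664, which edgeR put at 1.91 on the log2 scale with an SE of 0.06 (adjusted p = 4.25e-05). Reads rose too in the step 65 to 66 kb before it from 1083 and 1105 to 1249 and 1501, or 1.22 with an SE of 0.10 (edgeR, adjusted p = 0.000364). The 100 bases from these 2 EcoRI sites had 4 and 3 further exact copies elsewhere on chromosome 21, and 2 each on scaffolds, so their reads cannot be tied to these positions. The step at 41 to 42 kb before copies 1 and 2 had 8981 and 195 untreated reads against 18 and 30, and its log2 fold change went from -6.72 to -2.10 without untreated replicate 1. It lost its call without hemin replicate 1 (adjusted p = 0.166) or without hemin replicate 2 (adjusted p = 0.148).

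Over bins of 1 kb the stretch had a smaller share of calls than all bins tested, with no test of that difference. Of 61 bins of the stretch tested, 40 had an adjusted p under 0.05, 20 higher and 20 lower after hemin (edgeR). Of all 35621 bins tested 93.2% passed, 47.1% higher and 46.0% lower, so the 40 of 61 are below the background. Groups did not overlap in 48 of the 61 bins and in 96.6% of all bins. In the stretch 40 of the 61 bins had reads in all 4 libraries, against 10.2% of all bins tested, and among bins with reads in all 4 libraries 26 of these 40 passed beside 70.8% of all.

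The bins with the most reads were those after the viewpoint, at 8238001 to 8239000, 8466001 to 8467000 and 8421001 to 8422000, with 27.7%, 27.7% and 27.4% of the stretch reads in the mean and a log2 fold change of 0.24 each. They were followed by 28S bins at 8445001 to 8446000 and 8218001 to 8219000, with 5.06% each and -0.19. Beside the bins of copies 2 and 3 above, the highest fold changes were in the bin at 8217001 to 8218000, with 0 and 2 against 662 and 719 reads, at 8195001 to 8196000, with 0 and 4 against 257 and 295, and at 8333001 to 8334000, with 1225 and 1321 against 2484 and 2664. Their log2 fold changes were 10.11, 7.89 and 1.90, and without untreated replicate 2, which held the few untreated reads, those of the former pair were 12.77 and 11.44. The lowest were the bins at 8429001 to 8430000 and 8246001 to 8247000, at least 316-fold and 311-fold lower, then 8379001 to 8380000 and 8196001 to 8197000 with -3.37 and -3.29, or -2.47 and -2.40 without untreated replicate 1.

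The repeat-filtered tables of the authors kept little of these peaks. Of the stretch they held 40 untreated and 37 hemin regions, found in both replicates of a group. They held the 3 EcoRI sites before the viewpoint in both groups but none of the 3 sites of the 28S genes and none of the 3 of the 18S genes. Of the 4 upstream sites they held 4 in the untreated and 1 in the hemin table.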

How the data were processed

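The authors removed adapters with cutadapt 3.5, kept read pairs from which a 4C primer had been trimmed, aligned them to hg38 with BWA 0.7.17-r1188, kept aligned reads with SAMtools 1.14 and wrote contact regions with in-house scripts. The deposited replicate files give the count of reads in each region, mates counted singly and without normalization. No removal of duplicates is stated. In the deposited group tables the signal is the mean count of both replicates in regions that bedtools 2.29.1 found in both, after removal of repeat reads, and was used only for the presence of regions. A coverage column, also deposited, was not used. Columns without a sample numbered 0.

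The members, the kinds of place and the alternatives were chosen with earlier results of these data known, and the sums over copies after their values were seen. Region sequences were identical to hg38. A region belonged to the viewpoint copy nearest its midpoint, and to an EcoRI site within 10 bases of it. Shares were compared by a two-sided exact permutation test. Counts in 1 kb bins of the genome with at least 10 reads in 2 libraries were tested with edgeR 4.0.16 (R 4.3.3, glmQLFit, TMM, treatment only), at a Benjamini-Hochberg adjusted p under 0.05, and with DESeq2 1.42.0 as an alternative. The p-values measure only the spread between 2 libraries a group. Whether the libraries of a group came from separate cultures or ligations is not given in the sources used here, so that spread may be technical. The named genes were all rRNA and microRNA genes; the named bins were the 5 with the highest mean share and the 5 highest and 5 lowest log2 fold changes among called bins with a mean of at least 100 reads whose groups did not overlap. Libraries held 19548906 to 34000240 reads, and reads of a PCR product are not independent molecules. Gene positions came from RefSeq (GRCh38.p14) and GENCODE release 44. Alternatives covered tests, scalings, filters, bin sizes, distance limits, the replicate block and each library left out. Python 3.11.15, numpy 2.4.6, pandas 2.3.3, edlib 1.3.9.post1 and matplotlib 3.10.9 were used.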

Additional observations from a re-analysis of the deposited data

How the results depend on the processing

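The 40 called bins of the stretch became 41 to 44 of 61 under other scalings and DESeq2, where 93.1% to 93.4% of all bins passed. With a filter of at least 50 reads 37 of 56 passed, beside 95.7% of all bins. In bins of 500 bases 46 of 71 passed, beside 93.2%, and in bins of 5 kb 25 of 37, beside 92.2%. With no filter on low counts 33 of 78 passed beside 42.7% of all bins, so the stretch was then close to the background. With the replicate number as a block 0 bins of the stretch passed in edgeR (29 at an unadjusted p under 0.05), and also 0 of all 35621 bins. With each region counted once 0 bins of the stretch passed (4 unadjusted), and also 0 of all 46034 bins. Both settings could hardly call any bin, as the block takes up degrees of freedom from few libraries and a bin holds few regions. Their 0 calls therefore show neither a change nor its absence. Whether same-numbered libraries share a culture or a preparation is not given in the sources used here. Their deviations had a correlation of -0.11 over 2897 bins (Spearman -0.00302), which cannot show that there is no pairing. The crossed pairing, chosen after seeing the data, also gave 0 bins of the stretch (26 unadjusted) and 0 of all bins. Under the block each kind of place called had an adjusted p of 0.121, and the 3 directions of the main kinds (28S sites lower, 18S sites and the viewpoint flank higher) held in all 8 other fits of class sums. Places elsewhere in the units went from 0.01 to -0.17 by total reads and also to -0.17 by reads outside the stretch, and places elsewhere outside the units from 0.25 to -0.14 without untreated replicate 2, against 0.84 without untreated replicate 1. The difference in the stretch share was 0.935 points of the reads on chromosome 21 in place of 0.0300 of the library. Counted once per region, the copy shares differed by -0.772, -0.326 and 1.10 points for copies 1, 2 and 3, and the share within 2 kb by 4.09. Without regions within 2 kb the copy differences were -0.0551, 0.660 and -0.605 points, and within 20 kb those of copies 1 and 2 were -0.0352 and -0.0519. The causes were not tested. Depth limits places under 3 reads per library.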
